A study of Mus musculus with 12 samples.

Results

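The 80 genes that encode the proteins of the cytosolic ribosome, the particle that translates messenger RNA outside mitochondria, were followed through histone mark peak lists of 2 mouse melanoma cell lines. They were taken from a RefSeq table of gene positions on GRCm38 (mm10) as the protein-coding genes whose symbol is Rpl or Rps with a number, together with Rplp0, Rplp1, Rplp2 and Rpsa. The letters of this rule took 81 symbols of 21887 protein-coding genes, and Rps19bp1, which encodes a binding protein of a ribosomal protein, was left out. Of the 80 genes, 46 encode large subunit proteins, 31 encode small subunit proteins and 3 (Rpl37rt, Rps27rt and Rps23rg1) are retrocopies, that is, genes that arose from a reverse-transcribed messenger RNA. Fau, which encodes a ribosomal protein fused to a ubiquitin-like part, carries another name and was not counted.

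Line 971 has wild-type (WT) Kmt2d, line 493 is the Kmt2d mutant, and both were grown with serum in DMEM/F12 and received no other agent that the labels name. Kmt2d encodes an enzyme that places methyl groups on lysine 4 of histone H3. Each line was profiled by chromatin immunoprecipitation and sequencing (ChIP-seq) for H3K4me3, H3K27ac, H3K4me1 and H3K27me3, with 1 library per line and mark. Each line stands for 1 culture of 1 cell line, so a difference between them has no replicate check, carries no p value here, and cannot be told apart from any other difference between the lines. The labels do not say what the Kmt2d mutation is or how either line was derived.

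The lists differ in length, which bears on every comparison between the lines. On the assembled chromosomes the WT and mutant lists held 23154 and 17987 H3K4me3 peaks, 26415 and 18751 H3K27ac peaks, and 17373 and 3649 H3K4me1 peaks. The WT H3K27me3 list held 25394 peaks. The mutant H3K27me3 list held 1300, and by its name it was called against the WT H3K27me3 library, so it was read as regions higher in the mutant line and its number was not set against the WT list. The cell label was checked on 12 melanocyte genes: 4 had an H3K4me3 peak at a gene end in the WT line (Gpnmb, Mitf, Pax3 and Pmel) and 7 in the mutant line (also Mlana, Slc45a2 and Sox10), while the pigment enzyme genes Tyr, Tyrp1 and Dct had none in either. H3K4me3 lay at 4 and 3 of 7 fibroblast genes, and at 2 of 6 immune, 1 of 4 endothelial and 2 of 5 keratinocyte genes in each line. The part of other cell types in the results was not tested.

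Ribosomal protein genes are active in nearly every growing cell, because each ribosome needs one copy of most of its proteins. Their transcripts typically begin in a run of pyrimidines, the terminal oligopyrimidine tract, through which mTOR signalling and the RNA-binding protein LARP1 control translation. Many of them carry small nucleolar RNA (snoRNA) genes in their introns. H3K4me3 marks the starts of active genes, H3K27ac active promoters and enhancers, H3K4me1 enhancers and the flanks of promoters, and H3K27me3 genes silenced by Polycomb complexes.

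The starts of 9 genes are shown because the results below turn on them or because they let a parent gene be read against its retrocopy. Rpl27a carried all 3 active marks in both lines. Rps6 and Rps26 were among the genes with the most significant H3K27ac in the mutant line, and Rps19 and Rpl15 had H3K27ac in the mutant line alone and in the WT line alone. Rps28 had the most significant H3K4me1 peak of the set in the mutant line, and Rpl7a had the widest WT H3K4me3 peak. Each line gives 60 bases before and 20 from the listed start, read along the transcribed strand from the RefSeq promoter table of GRCm38.p6, and capitals mark runs of 7 or more C or T that lie wholly in the letters shown and near the start.
Rpl27a (chr7:109519135-109519214, + strand): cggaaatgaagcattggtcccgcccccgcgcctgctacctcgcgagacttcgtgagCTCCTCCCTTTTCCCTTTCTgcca
Rps6 (chr4:86857348-86857427, - strand): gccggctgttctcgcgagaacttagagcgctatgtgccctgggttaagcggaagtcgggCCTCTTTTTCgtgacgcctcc
Rps26 (chr10:128626487-128626566, - strand): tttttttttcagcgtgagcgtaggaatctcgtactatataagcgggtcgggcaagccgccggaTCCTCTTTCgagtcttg
Rps19 (chr7:24884532-24884611, + strand): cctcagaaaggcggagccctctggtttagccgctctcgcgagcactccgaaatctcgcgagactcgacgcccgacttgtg
Rpl15 (chr14:18270967-18271046, - strand): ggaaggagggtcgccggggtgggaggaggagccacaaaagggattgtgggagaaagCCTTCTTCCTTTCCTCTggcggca
Rps28 (chr17:33824543-33824622, - strand): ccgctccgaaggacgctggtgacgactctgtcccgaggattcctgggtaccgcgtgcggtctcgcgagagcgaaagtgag
Rpl7a (chr2:26910747-26910826, + strand): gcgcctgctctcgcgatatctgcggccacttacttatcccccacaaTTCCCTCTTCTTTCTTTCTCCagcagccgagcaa
Rps27 (chr3:90213629-90213708, - strand): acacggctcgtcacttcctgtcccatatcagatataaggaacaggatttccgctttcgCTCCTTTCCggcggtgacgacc
Rps27rt (chr9:114982720-114982799, - strand): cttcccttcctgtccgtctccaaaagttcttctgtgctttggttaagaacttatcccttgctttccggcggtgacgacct

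Where a gene has several listed starts, the outermost was used. A promoter window of 300 bases, 250 before the start and 50 from it, was listed for 60 of the 80 genes, and for 57 of the 77 without the retrocopies. A run of 7 or more pyrimidines that reached into the stretch from 20 bases before to 30 after the start was found in 42 of the 57 (73.7%), against 32.8% of 17492 protein-coding genes with a window. The run held the first base or the one before it in 17 (29.8%), against 7.40%. The ETS core CCGGAAG, on either strand anywhere in the window, was found in 23 (40.4%, against 11.9%), and the YY1 core AAGATGG in 9 (15.8%, against 6.35%). The Sp1 core GGGCGG was found in 34 (59.6%, against 46.3%) and TATAAA in 6 (10.5%, against 13.3%). The windows were rich in CG dinucleotides, with a median of 21 against 13. These matches describe letters and not bound factors.

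The genes are short and lie close to others. Their median length was 3.18 kb, against 17.2 kb for all protein-coding genes. Of the 80, 30 (37.5%) held a snoRNA gene, against 1.70% of all, and together they held 59. Another protein-coding gene ended within 1 kb of 29 (36.2%), against 24.8%. They were spread over 19 of 21 chromosomes, with 14 on chromosome 7.

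H3K4me3 was present at every ribosomal protein gene other than the retrocopies, in both lines. A peak counted as present when it lay within 1 kb of either gene end, since the gene table gives no strand. H3K4me3 was present at 77 of the 80 genes (96.2%) in the WT line, against 56.4% of all protein-coding genes, and at the same number in the mutant line, against 56.7%. All 77 had it in both lines, against 55.0% of all genes, and none had it in the WT line alone (1.37% of all) or in the mutant line alone (1.68%). Within 10 kb, all 80 had a peak in each line, against 65.2% and 65.0% of all genes.

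**Figure D1:**
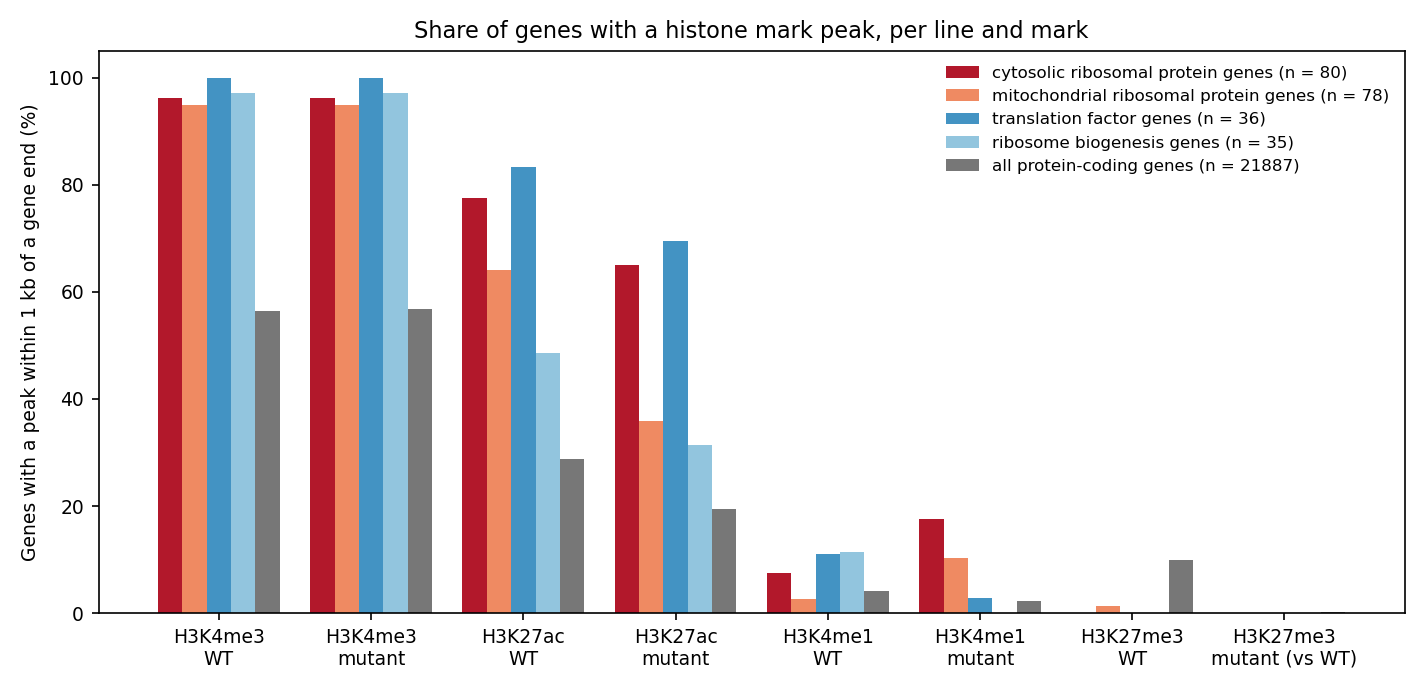
Percent of genes (vertical axis) with a peak within 1 kb of a gene end, for each mark and line (horizontal axis), with 1 bar per gene list and no bar where the share is 0. The cytosolic ribosomal protein genes stand at 96.2% for H3K4me3 in both lines, at 77.5% and 65.0% for H3K27ac in WT and mutant, and at 7.50% and 17.5% for H3K4me1.

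The 3 genes with no H3K4me3 at an end were the retrocopies. The nearest H3K4me3 peak to Rps23rg1 lay 2.41 kb (WT) and 2.40 kb (mutant) away, that to Rps27rt 2.79 and 2.68 kb away, and that to Rpl37rt 8.03 and 7.93 kb away. Rps27rt and its parent Rps27 make the contrast plain. Rps27 had an H3K4me3 peak of 4216 bp in WT cells and of 4095 bp in mutant cells. The windows of the 2 genes share a run of 38 bases that begins at base 2 of Rps27 and base 1 of Rps27rt, whereas in the 250 bases before the starts the longest shared run was 10 bases. The windows thus matched from the start on over that run and little upstream. Of 318 ribosomal protein pseudogenes in the table, H3K4me3 lay within 1 kb of 5 (1.57%) in the WT list and 6 (1.89%) in the mutant list.

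The H3K4me3 peaks at ribosomal protein genes were wide and of similar width in the 2 lines. The widest peak at each of the 77 genes ranged from 2143 to 10719 bp in the WT line, with a median of 3755 bp, and from 2023 to 8727 bp in the mutant line, with a median of 4040 bp. Over all genes with a peak the medians were 2772 and 2655 bp. A width of 4 kb or more was reached by 32 ribosomal protein genes in the WT list and 40 in the mutant list, against 19.6% and 16.0% of all genes with a peak. In 27 and 31 of them the peak covered the gene from end to end, against 2.33% and 2.30% of all genes with a peak, and against 8.81% and 8.69% of genes with lengths in the same range (1.22 to 8.49 kb). The peak also covered an end of another protein-coding gene in 26 and 28, so part of its width may belong to a neighbour. The same share was not computed over all genes, so these counts do not set the ribosomal protein genes apart.

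Around the listed start the peaks reached further into the gene than away from it. In 57 genes with a start and a peak, the start was covered in 54 in the WT list and 55 in the mutant list. The median reach was 975 bp upstream and 2973 bp downstream for the WT list, and 968 and 3017 bp in the mutant line. Over all genes it was 893 and 1794 bp, and 858 and 1714 bp. The upstream reach was thus close to that of other genes, and the downstream reach was longer.

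The widest WT peak was at Rpl7a, a large subunit gene of the densely packed surfeit locus, where it spanned 10719 bp. Rpl13a, a large subunit gene on chromosome 7, had a peak of 8697 bp in the WT line and one of 8727 bp for the mutant. Next came Rpl35, whose protein sits near the exit of the peptide tunnel, with 8405 bp, Rps15a with 7190 bp and Rpl18 with 6912 bp. The narrowest WT peaks were those of Rpl19 (2143 bp), Rps26 (2233 bp), Rps15 (2263 bp), Rps29 (2303 bp) and Rps23 (2499 bp). For Rpl19 the value depends on the gene model. Its listed start lies 4.71 kb inside the model, and at that start the peaks were 3.84 kb (WT) and 3.58 kb (mutant) wide.

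**Figure D2:**
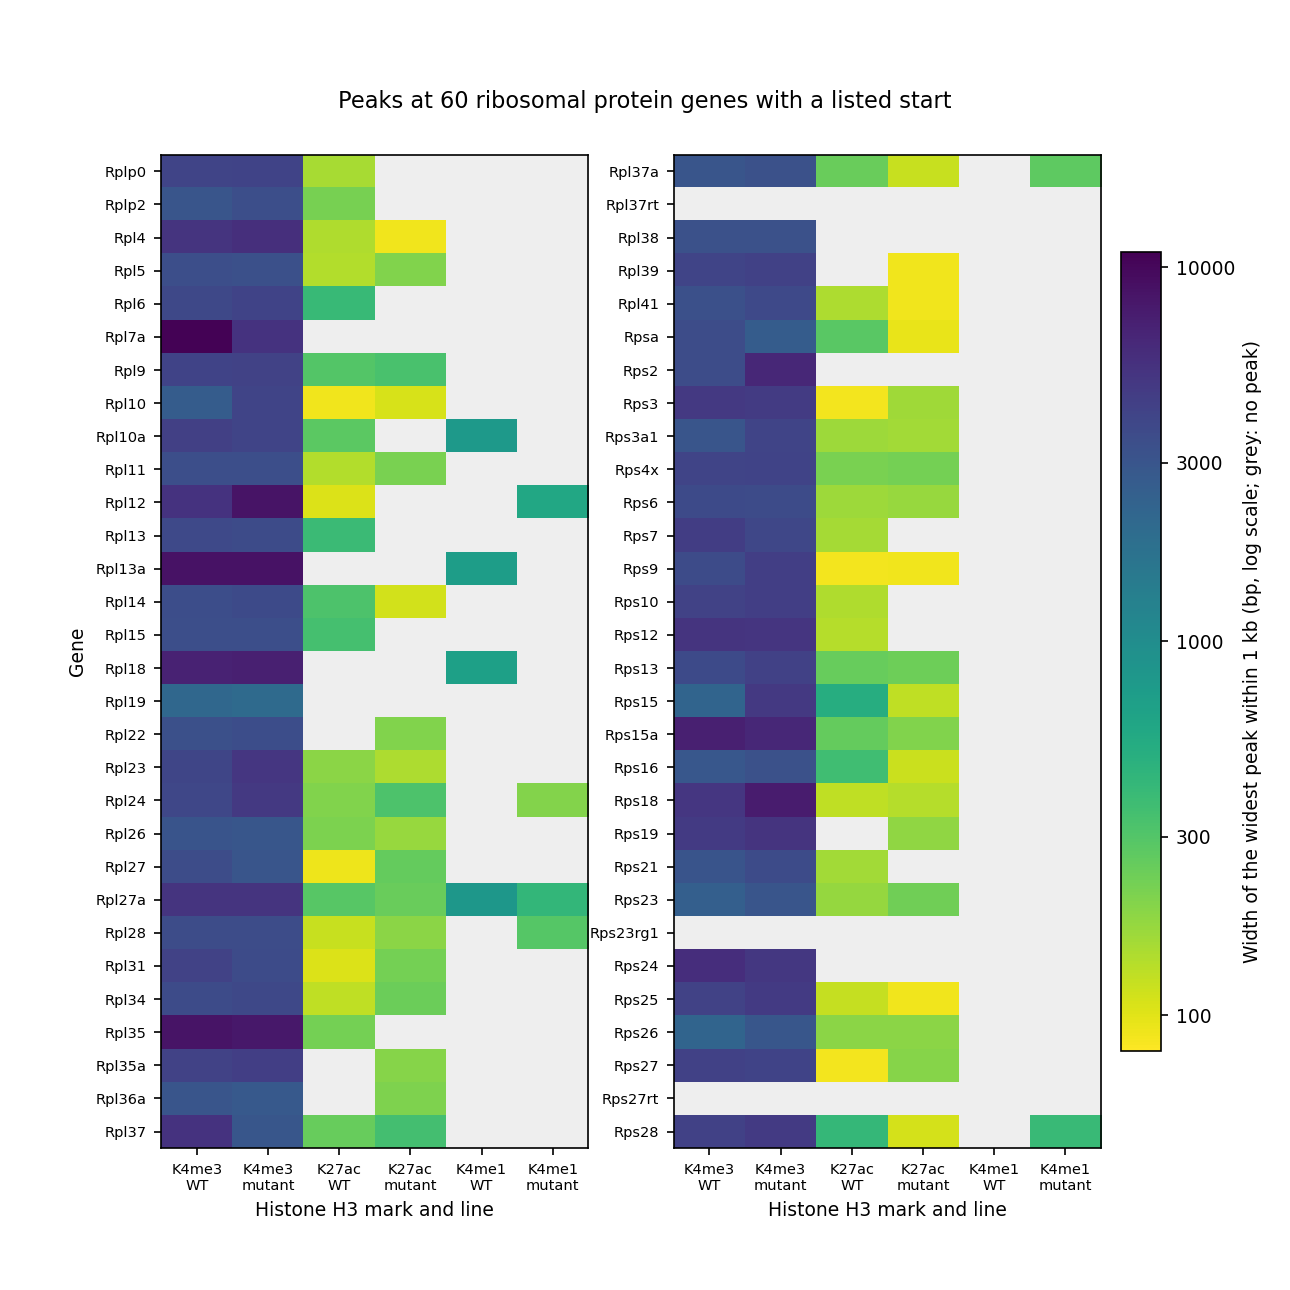
Each row is 1 of the 60 genes with a listed start and each column 1 mark in 1 line; colour gives the width in bp of the widest peak within 1 kb of a gene end on a log scale, and grey means no peak. H3K4me3 fills both columns in all rows but the 3 retrocopies, H3K27ac is narrow and in places present in 1 line alone, and H3K4me1 is scattered.

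The log2 ratio of mutant to WT width had a median of 0.02 over the 77 genes and reached 1.11 at Rps15, against a median of -0.05 over 12040 genes with a peak in both lines. The quartiles of the ratio were -0.07 and 0.16 at the ribosomal protein genes, against -0.19 and 0.09 over all genes, so similar widths were common elsewhere too. The peak was at least 1.5-fold wider in the mutant line at 6 genes (7.79%), against 3.84% of all genes, and at least 1.5-fold narrower at 2 (2.60%), against 5.07%. These are few genes, and most had a different number of peaks in the 2 lines, as the following values show.

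Rps15, a small subunit gene, had 1 peak in each line, of 2263 bp in the WT line and 4889 bp in the mutant line. Rpl17 had 2 WT peaks, the wider of 3865 bp, and 1 mutant peak of 7861 bp. Rpl23a, whose protein binds the signal recognition particle at the tunnel exit, had 2 WT peaks, the wider of 4365 bp, and 1 mutant peak of 8693 bp. At Rpl17 and Rpl23a, therefore, 1 wide peak in the mutant line stood where the WT list had 2. Rps2 followed the same form, with 3 WT peaks, the widest of 3507 bp, and 1 mutant peak of 6419 bp. Rpl10, whose protein joins the large subunit late in its assembly, had 2 WT peaks, the wider of 2623 bp, and 1 mutant peak of 3978 bp. Rpl12, whose protein lies at the base of the ribosomal stalk, had 1 peak in each line, of 5390 and 8412 bp.

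In the other direction, Rpl7a had 1 WT peak of 10719 bp and 2 mutant peaks, the wider of 5370 bp. Rpl37 had 1 WT peak of 5393 bp and 2 mutant peaks, the wider of 2974 bp. The next lowest ratios were -0.41 at Rpsa (3515 to 2642 bp), and -0.23 at both Rps24 (5817 to 4962 bp) and Rps7 (4536 to 3863 bp), none of them past 1.5-fold. Of the 8 genes past 1.5-fold, 6 had another number of peaks in the 2 lines.

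The bases covered by H3K4me3 from 10 kb before to 10 kb after each gene do not depend on where one peak is split from the next. By that measure none of the 80 genes differed by 1.5-fold or more between the lines, against 12.7% of 14163 genes covered in both. The log2 ratio ran from -0.29 at Rpl19 to 0.36, with a median of -0.01, against -0.08 for all genes. At the 8 genes with the large width differences it lay between -0.15 and 0.20. The widths of single peaks thus differed at these genes and the covered bases around them differed little.

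**Figure D3:**
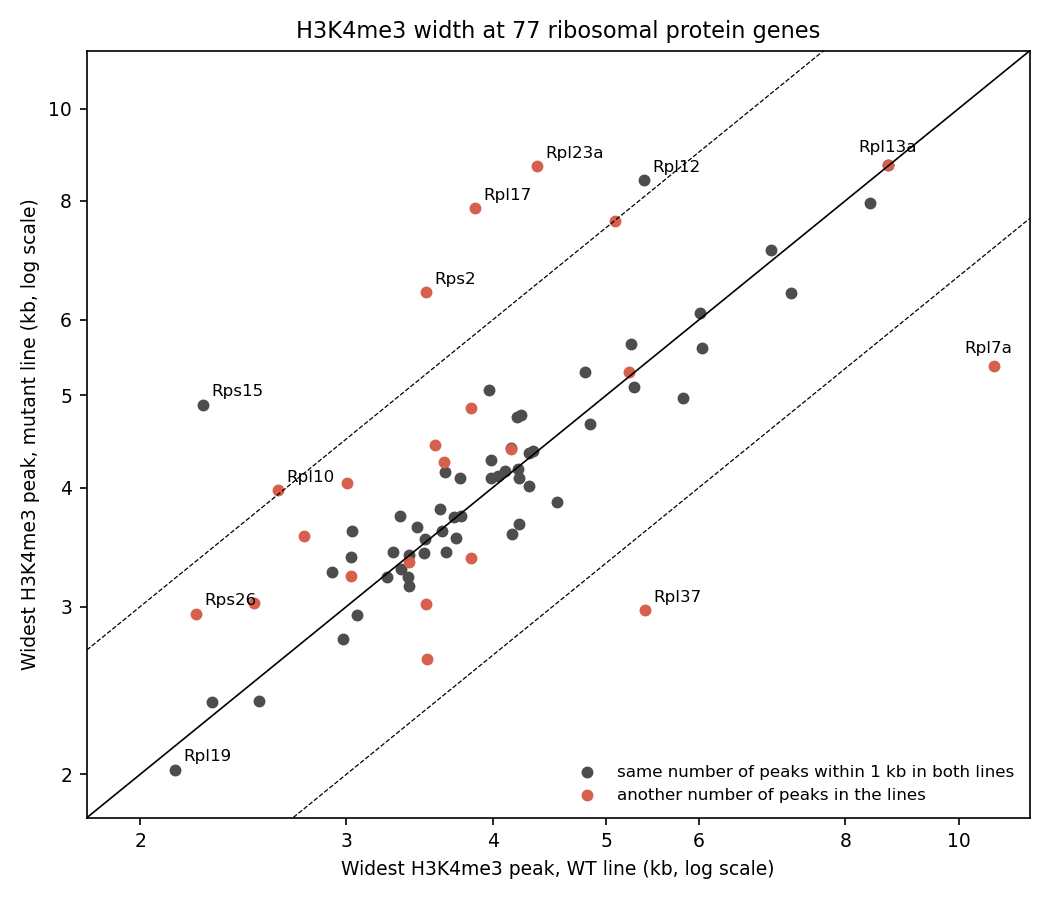
Width of the widest H3K4me3 peak at 77 ribosomal protein genes in the WT line (horizontal axis, kb, log scale) and the mutant line (vertical axis, kb, log scale); the solid line is equality, the broken lines are 1.5-fold, and red points have another number of peaks in the 2 lines. Of the genes outside the broken lines 6 are wider in the mutant line and 2 (Rpl7a and Rpl37) are narrower, and 6 of these 8 points are red.

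The authors' H3K4me3 score could not rank most of these genes. The score of the strongest peak was at or above 3100, a value at which 18.6% of WT and 17.9% of mutant peaks stood exactly, at 69 of the 77 genes in both lines. Such equal scores do not show equal signal. The other 3759 protein-coding genes with that score in both lines had median widths of 4103 and 3934 bp, while the 69 ribosomal protein genes had 3835 and 4095 bp. Among genes of that score, then, ribosomal protein genes were not wider in the WT line.

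H3K27ac was at most ribosomal protein genes in both lines, in narrow peaks. It lay within 1 kb of 62 genes (77.5%) in the WT line, against 28.7% of all genes, and of 52 (65.0%) in the mutant line, against 19.5%. Within 10 kb it was at 72 (90.0%, against 48.2%) and 65 (81.2%, against 37.8%). Fewer genes carried it in the mutant line, whose list was also shorter, and the share fell over all genes too. With the WT list shortened to the mutant list's length by the authors' p values, H3K27ac was at 55 (WT) and 52 (mutant) genes. By state these were 43 (both), 12 (WT alone) and 9 (mutant alone). The counts of the 2 lines were thus close once the lists had equal length. The H3K27ac share over all genes was not computed at equal length, so these counts do not set the ribosomal protein genes apart. A mark in fewer cells and a weaker mark in each cell cannot be told apart in these libraries.

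Of the 80 genes, 46 had H3K27ac in both lines, against 12.6% of all genes. It was at 16 of 80 genes in the WT line alone, against 16.1%, and at 6 (7.50%) in the mutant line alone, against 6.84%. The 2 shares of genes with H3K27ac in 1 line alone were therefore near those of all genes, while the share with it in both was higher. Put another way, 46 of the 62 genes with WT H3K27ac had it in the mutant line too (74.2%), against 43.9% of all genes with WT H3K27ac. Among the 3759 other genes of the recurring top H3K4me3 score, 62.6% had H3K27ac in the WT line, 44.5% in the mutant line and 32.7% in both. Of the 69 ribosomal protein genes of that score, 82.6%, 65.2% and 59.4% did.

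The 16 genes with WT H3K27ac alone included Rpl15, Rpl13 and Rpl6, which were among those with the most significant peaks by the authors' -log10 p. Rpl15, a large subunit gene among those mutated in Diamond-Blackfan anaemia, had a peak of 339 bp with a -log10 p of 10.9. Rpl13 had one of 385 bp (10.1). Rpl6 had 2 peaks, the more significant of 133 bp (9.73). None of these overlapped an H3K27ac peak of the mutant line. The others included Rpl12, Rpl35, Rps21, Rplp0, Rpl32, Rplp2, Rps12, Rps7, Rps10 and Rpl10a. Rplp0 and Rplp2 encode proteins of the stalk that brings elongation factors to the ribosome. Their WT peaks were 151 bp (7.39) and 218 bp (7.89).

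The 6 genes with mutant H3K27ac alone were Rps19, Rpl22, Rpl23a, Rpl36a, Rpl39 and Rpl35a. Rps19, a small subunit gene mutated in Diamond-Blackfan anaemia, stood above the rest with a peak of 181 bp and a -log10 p of 12.8, more significant than 98.2% of the mutant list. Rpl22 followed with 204 bp (8.74). The most significant peaks at Rpl23a, Rpl36a, Rpl39 and Rpl35a had values from 6.40 to 6.58. The peak at Rpl39 was 89 bp wide, the lowest width over all genes with a mutant H3K27ac peak.

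Among the genes with H3K27ac in both lines, the most significant mutant peaks apart from that of Rps14 (13.7) were at Rps26 (13.6), Rpl27a (13.4), Rps13 (13.4), Rps6 and Rps29 (both 13.1). Rps26, whose protein lines the messenger RNA exit channel, had 2 WT peaks and 3 mutant peaks, and both WT peaks overlapped a mutant peak. Rps6, the substrate of the S6 kinases, had 3 WT and 2 mutant peaks, and both mutant peaks overlapped a WT peak. At Rpl27a the most significant WT peak (287 bp, 14.0) overlapped no mutant peak, whereas the mutant peak of 248 bp (13.4) overlapped a lesser WT peak. Rps13 had peaks that did not overlap between the lines. Over the 46 genes, 27 (58.7%) had H3K27ac peaks of the 2 lines that shared at least 1 base, against 41.2% of 2760 genes with H3K27ac in both. Rpsa, which encodes a small subunit protein also known as the laminin receptor precursor, had a WT peak of 283 bp (10.6) and a mutant peak of 94 bp (9.04) that did not overlap.

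The widest H3K27ac peak at a ribosomal protein gene was wider in the median than over all genes. Which line had the wider peaks depended on how width was taken. Median widths of the widest peak were 162 bp in the WT line and 169.5 bp in the mutant line, against 142 and 126 bp over all genes. At translation factor genes they were 180.5 and 152 bp, at ribosome biogenesis genes 180 and 120 bp, and at mitochondrial ribosomal protein genes 146 bp in each line. More than 1 WT peak lay at 29 of 62 ribosomal protein genes, against 1608 of 6291 genes. Taken singly, the distinct peaks at ribosomal protein genes had medians of 133 bp (WT) and 158 bp (mutant). The log2 ratio of mutant to WT width over the 46 genes had a median of 0.05, against -0.14. At 12 genes (26.1%) the mutant peak was at least 1.5-fold wider, against 16.1%, and at 11 (23.9%) at least 1.5-fold narrower, against 30.6%. With the widths of all peaks at a gene summed, the medians were 232 and 198 bp. The mutant sum was at least 1.5-fold wider at 8 genes and narrower at 17. Summed widths were not computed over all genes, so these counts do not set the ribosomal protein genes apart. Of 68 genes with H3K27ac in either line, 32 (47.1%) had more peaks in the WT line, against 54.2% of all such genes, and 11 (16.2%) had more in the mutant line, against 23.9%.

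Nearly all of these peaks sat inside H3K4me3 peaks, as most did over all genes. Of 97 distinct WT H3K27ac peaks within 1 kb of a ribosomal protein gene, 95 (97.9%) lay wholly inside a WT H3K4me3 peak, against 89.0% over all genes. In the mutant line 64 of 66 (97.0%) did, against 87.8%. Of the 97 WT peaks, 33 (34.0%) overlapped a mutant H3K27ac peak, against 14.8% over all genes, and of the 66 mutant peaks, 33 overlapped a WT one, against 23.8%. In 60 genes with a listed start, 69 WT summits lay within 1 kb of it, 13 upstream and 56 downstream (81.2%, against 64.7% over all genes), at medians of -373 and 460 bp. In the mutant line 48 summits lay there, 11 upstream and 37 downstream (77.1%, against 63.2%), at medians of -513 and 318 bp. Few summits lay within 100 bp of the start, 2 in each line (2.90% and 4.17%), and over all genes the shares were 5.99% and 4.57%. No H3K27ac peak lay on a gene end itself in the WT line, and 3 genes had one there in the mutant line. The share of all genes with a peak on an end was not computed, so these counts describe the ribosomal protein genes alone.

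**Figure D4:**
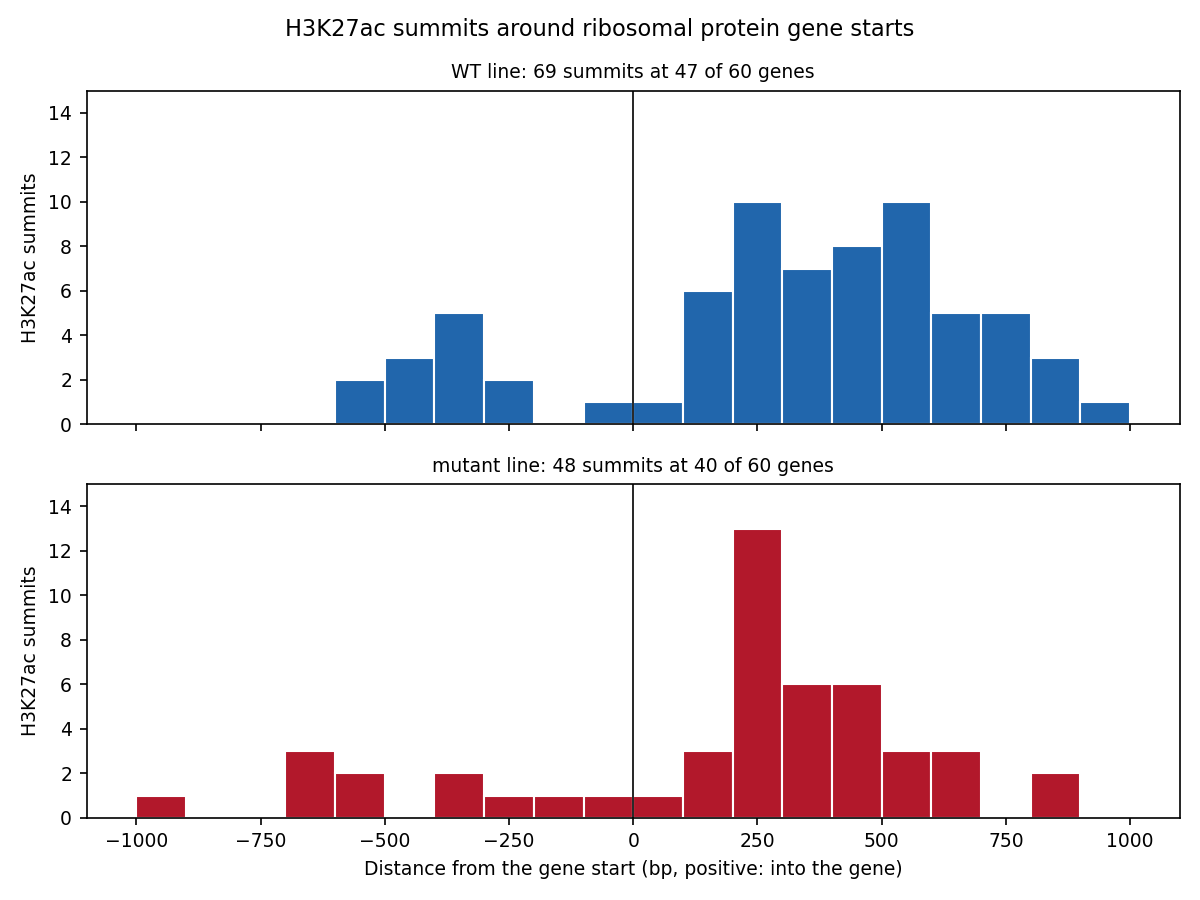
Number of H3K27ac summits (vertical axis) by distance from the listed gene start in bp (horizontal axis, positive into the gene, bins of equal size) in the WT line (top) and the mutant line (bottom). Of 69 WT and 48 mutant summits, 56 and 37 lie downstream.

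H3K27ac was at an end in neither line at 12 genes, the 3 retrocopies and Rpl7a, Rps24, Rpl13a, Rpl18, Rplp1, Rpl19, Rpl38, Rps2 and Rpl17. For 5 of these the listed start lies inside the gene model, and at 4 of the 5 H3K27ac lay within 1 kb of that start, the exception being Rpl7a. At Rpl19 the peaks were 254 bp in the WT line and 174 bp in the mutant line, and at Rps2 they were 218 and 175 bp. At Rpl18 a peak of 400 bp lay there in the mutant line alone, and at Rpl38, whose start is 0.762 kb inside the model, one of 92 bp in the WT line alone. With listed starts added to the gene ends, an alternative chosen after seeing the data, H3K27ac was at 65 genes in the WT list and 55 in the mutant list. The share over all genes was not computed with listed starts added.

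H3K4me1 was at few ribosomal protein genes, and at more of them in the mutant line, although the mutant list was much the shorter. It lay within 1 kb of 6 genes (7.50%) in the WT line, against 4.21% of all genes, and of 14 (17.5%) in the mutant line, against 2.27%. Within 10 kb it was at 25 (31.2%, against 21.2%) and 29 (36.2%, against 12.3%). Rpl27a alone had it in both lines (0.475% of all genes). It was at 5 genes in the WT line alone (6.25%, against 3.73%) and at 13 in the mutant line alone (16.2%, against 1.79%). The direction was thus opposite to that over all genes, where H3K4me1 at a gene end was seen more often in the WT line.

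With the WT list shortened to the length of the mutant list by the authors' p values, no ribosomal protein gene had WT H3K4me1, against 0.950% of all genes. The mutant list, the shorter, was not changed by this. Among the more significant 50% of each list, 2 of 80 genes (against 2.22% of all) had it in the WT list and 7 (8.75%, against 1.23%) in the mutant list. Genes of similar length had mutant H3K4me1 in 3.74% of cases, and other genes of the recurring top H3K4me3 score in 5.43%, against 18.8% of ribosomal protein genes of that score. Genes of equal top score need not have equal H3K4me3 signal, and the part of gene length or H3K4me3 strength in this count was not tested.

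The 13 genes with mutant H3K4me1 alone included Rps28 and 11 large subunit genes: Rpl32, Rpl37a, Rpl17, Rpl24, Rpl23a, Rpl8, Rpl30, Rpl12, Rpl28, Rpl36 and Rplp1. Rps28 had the most significant peak, of 392 bp with a -log10 p of 7.84, above 93.9% of the mutant list. Rpl32 followed with 505 bp (6.88), Rpl37a with 271 bp (6.35), Rpl17 with 229 bp (6.34) and Rpl24, whose protein forms a bridge between the subunits, with 200 bp (6.26). The least significant was that of the stalk gene Rplp1, of 400 bp (5.20), near the bottom of the list. The 200 bp at Rpl24 was the lowest width over all genes with a mutant H3K4me1 peak. With Rpl27a included, 12 of 46 large subunit and 2 of 31 small subunit genes had mutant H3K4me1.

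The 5 genes with WT H3K4me1 alone included Rpl10a (787 bp, 7.03), Rpl13a (714 bp, 5.85), Rpl18 (667 bp, 5.64) and Rpl3 (507 bp, 5.59). At Rpl27a the WT peak (chr7:109522929-109523743, 815 bp, 5.75) and the mutant peak (chr7:109521919-109522343, 425 bp, 7.66) did not overlap. The mutant peak there was the narrower by more than 1.5-fold, as at 42.3% of 104 genes with H3K4me1 in both lines, while 18.3% had a mutant peak wider by that fold. None of the 6 WT H3K4me1 peaks at ribosomal protein genes overlapped a mutant one, against 7.07% of such peaks over all genes, and none of the 14 mutant peaks overlapped a WT one, against 15.7%. With so few peaks, these counts show no departure from the low overlap elsewhere.

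The mutant H3K4me1 peaks lay inside the H3K4me3 peaks and away from the gene start. Of the 14, 13 (92.9%) were wholly inside a mutant H3K4me3 peak, against 73.8% over all genes, and the exception was that of Rpl24. All 6 with a known strand (Rpl12, Rpl24, Rpl27a, Rpl28, Rpl37a and Rps28) lay nearer to the 3′ end than to the 5′ end, with midpoints 0.0580 kb (Rpl28) to 0.918 kb (Rpl37a) from it, against 33.5% of 409 mutant peak and gene pairs over all genes. In the WT line, 2 of 4 did so (Rpl13a and Rpl27a), against 55.9% of all pairs. With the gene start as the only anchor, H3K4me1 was at 1 of 60 genes in each line. Of the 77 genes with H3K4me3, 14 (18.2%) had H3K4me1 at an end in the mutant line, against 3.87% of all genes with H3K4me3, and 10 of them also had H3K27ac.

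H3K27me3 was at no ribosomal protein gene. None of the 80 genes had a WT peak within 1 kb, against 9.94% of all genes, and none had a region higher in the mutant line, against 0.219%. Within 10 kb, 13 genes (16.2%) had a WT peak, against 21.9%, at 1.80 to 9.80 kb, and the peaks were 206 to 1545 bp wide. The nearest were at 2 retrocopies, Rps23rg1 (1.80 kb, 556 bp) and Rps27rt (1.91 kb, 931 bp), followed by Rpl38 (2.68 kb, 206 bp). Rps15 was the 1 gene (1.25%, against 1.41%) with a region higher in the mutant line within 10 kb. That region lay 5.44 kb away and was 151 bp wide, the lowest width over all genes with such a region at an end. Rps15 also had the highest H3K4me3 width ratio, and no relation between the 2 marks was tested.

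Large and small subunit genes were alike in the presence of H3K4me3 and differed somewhat in its extent and in the other marks. The median width of the widest H3K4me3 peak was 3738 and 4044 bp in the WT line, and 3732 and 4180 bp in the mutant line. Median bases covered by H3K4me3 within 10 kb were 6003 and 4329 bp in the WT line, and 5536 and 4259 bp in the mutant line. H3K27ac was at 34 of 46 large subunit genes and 28 of 31 small subunit genes in the WT line, and at 29 and 23 in the mutant line. It was in both lines at 24 (52.2%) and 22 (71.0%). These counts and medians are not tested, since the genes share the same 2 libraries.

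Other genes of the translation machinery had part of this pattern. H3K4me3 was at 74 of 78 mitochondrial ribosomal protein genes, all 36 translation factor genes and 34 of 35 ribosome biogenesis genes in both lines. Median WT and mutant widths were 2760.5 and 2640.5 bp at mitochondrial ribosomal protein genes, 4083 and 3890.5 bp at translation factor genes, and 3340 and 3068 bp at biogenesis genes. The cytosolic ribosomal protein genes were thus wider than the mitochondrial ones and similar to the translation factors. H3K27ac was at 50 mitochondrial ribosomal protein genes in the WT list and 28 in the mutant list, at 30 and 25 translation factor genes, and at 17 and 11 biogenesis genes. It was in both lines at 21 of 78, 23 of 36 and 7 of 35 genes of these lists, and at 46 of 80 cytosolic ribosomal protein genes. Mutant H3K4me1 was at 8, 1 and 0 genes of the 3 lists, and WT H3K4me1 at 2, 4 and 4. Within 10 kb, however, it was at 12 translation factor genes (33.3%) in WT and 17 (47.2%) in mutant cells, so a higher count in the mutant line was not particular to ribosomal protein genes.

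The fusion gene Fau, outside the rule, was also marked. It had H3K4me3 peaks of 3369 and 4087 bp in the WT and mutant lines, and H3K27ac, of 150 bp, in the mutant line alone.

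By H3K27ac state, the pyrimidine run was in 11 of 12 genes with WT H3K27ac alone and a promoter window, 22 of 33 with it in both lines, 3 of 5 with it in the mutant line alone and 6 of 7 with it in neither. Rpl15, shown above, has a run of 17 at its start, and neither Rps19 nor Rps28 has one at the start shown. The run was therefore frequent in every state, and the small counts rank none of them.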

How the data were processed

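The data used were the deposited peak lists, 1 for each of 8 ChIP libraries; the reads of the 4 input libraries were not analysed here. The submitters' processing notes name mm10 as the build and FastQC, MultiQC and MACS2 as tools, without versions. Aligner, read filters and read depth were not given in the sources used here, so a missing peak may be a weak one. The deposited H3K4me3 lists hold a score, the −log10 p multiplied by 10, which starts at 50.0. The other deposited lists give a fold enrichment (a ratio) and −log10 p and q values. These values are the authors' and served only to rank peaks within a list. Each list is called against its line's own input by its file name, except the mutant H3K27me3 list, named against the WT H3K27me3 library.

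Peaks on the 19 autosomes, X and Y were placed against RefSeq gene ends (within 1 kb, also 10 kb). Width is that of the widest such peak. Widths were compared at 1.5-fold, and bases covered from 10 kb before to 10 kb after a gene were summed. Coordinates are 1-based. Starts and strands came from the RefSeq promoter table, for 60 of the 80 genes. Shares over all genes were computed in the same way as for the ribosomal protein genes (Python 3.11.15, pandas 2.3.3). Their base was the 21887 genes, or the genes or peaks to which a measure applied. Some counts have no such share. The code was tested on simulated data. No p values were computed.

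Named genes were the members without H3K4me3, those with the 5 most significant H3K27ac or H3K4me1 peaks in each state (all where 5 or fewer), the 5 widest and narrowest H3K4me3 peaks, the 5 highest and lowest width ratios, the stalk genes and Rpsa. Some members that this rule took are not reported here. Other members are named only where a counted group is listed; Rpl35a, Rpl10, Rps13 and the 4 genes with H3K27ac at an internal start came after their values were seen. The members and lists were chosen with earlier results of these data known. Alternatives covered distance, gene start, thresholds, list length, neighbours, chromosomes 10 and 19, summed widths, fold and window.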

Additional observations from a re-analysis of the deposited data

How the results depend on the processing

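No paired analysis was possible because there is 1 library per line and mark and the labels give no replicate numbers. Counts below are WT then mutant line, or both lines, WT alone and mutant alone. For most of these settings the share over all genes was not computed, so the counts do not set the ribosomal protein genes apart. Within 2.5 kb, H3K4me1 was at 15 and 26 genes (states 4, 11 and 22) and WT H3K27me3 at 2. With only peaks on the gene end itself, H3K27ac was at 0 and 3 genes (states 0, 0 and 3) and H3K4me1 at 1 and 3 (states 0, 1 and 3), with a WT H3K4me1 width of 1169 bp. From the gene start alone (60 genes), H3K4me1 was at 1 and 1 (states 0, 1 and 1), with a mutant width of 200 bp. In the more significant 50% of each list, H3K4me1 was at 2 and 7 (states 0, 2 and 7), and median covered H3K27ac within 10 kb was 141 and 89.0 bp. With lists of equal length, WT H3K4me1 was at 0 genes (0 in both lines and 0 in WT alone). Over the 51 genes without a neighbour within 1 kb, fewer genes entered: H3K4me3 was at 49 and 49 (49 in both), WT H3K27ac at 40 (8 in WT alone, 3 in mutant alone) and mutant H3K4me1 at 8 (3 in WT alone, 7 in mutant alone). There H3K4me3 was wider in the mutant line at 2 genes and narrower at 0, and H3K27ac narrower at 7. With summed widths, H3K4me3 was wider at 2 and narrower at 0, and H3K27ac narrower at 17 and wider at 8. At 2-fold, H3K4me3 was wider at 2 and narrower at 0, and H3K27ac wider at 6 and narrower at 6. Among comparison genes, chosen after seeing the data for the recurring top H3K4me3 score, H3K27ac was at 62.6% and 44.5% and H3K4me1 at 7.21% and 5.43%; mutant H3K4me1 was at 3.74% of genes of similar length. Leaving out chromosomes 10 and 19, leaving out the retrocopies, adding Rps19bp1, adding listed starts, or taking a 5 kb window moved no count or median by over 1.5 times. The line with the higher value changed for median H3K27ac width (162 and 169.5 bp as reported) with summed widths (232 and 198) and from the gene start alone (188 and 175). It changed for wider against narrower H3K27ac (12 and 11) with summed widths and within 2.5 kb (13 and 14), and for median covered H3K4me3 (4934 and 5142 bp) in the more significant 50% (4584 and 4312). With summed widths, median H3K4me3 was 4098 and 4095 bp, against 3755 and 4040 for the widest peak.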
